A study of Mus musculus with 9 samples.

Results

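The interferon-stimulated genes and the factors that switch them on were followed in b.End3 cells, a line described as endothelium of brain microvessels, before and after photodynamic therapy (PDT). The set was chosen by name and holds 9 of the 54532 genes in the series table: the factors Stat2, Irf9, Irf1 and Irf7 and the products Isg15, Bst2, Ifit1, Ifit2 and Ifit3. The 9 RNA-seq libraries, all from this one line, fell into 3 groups of 3. The labels give the organism as mouse and the strain as C57BL/6, whereas the growth protocol calls the cells rat, and the values are for mouse genes. Ctrl cells were untreated, whereas Ep1 and Ep2 cells took up the photosensitizer porfimer sodium at 300 μg/mL for 90 min before 635 nm laser light at 100 mW/cm2, to a total of 10 J/cm2 in Ep1 and 20 J/cm2 in Ep2. There was no group with light alone or with porfimer sodium alone, so photosensitizer and light cannot be told apart here, and the time between light and lysis is not given in the sources used here. Nothing in the labels says that libraries of a group came from separate cultures, so every p-value measures the spread between these libraries, which may be technical.

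When cells sense foreign nucleic acid they can secrete type I interferon, which binds the receptor pair Ifnar1 and Ifnar2 and activates the kinases Jak1 and Tyk2. These phosphorylate Stat2, which joins Irf9 in a complex that binds a promoter element called the interferon-stimulated response element (ISRE). The genes behind that element include Isg15, a ubiquitin-like protein, the Ifit proteins, which bind RNA and restrain viral translation, and Bst2 (tetherin), which holds budding virus at the cell surface. Irf1 is a primary target of interferon gamma through the gamma-activated sequence (GAS), and Irf7 amplifies interferon production. Endothelial cells carry these receptors and respond to interferon.

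Endothelial identity was poorly marked: of 12 endothelial markers 3 (Flt1, Eng and Ets1) passed the expression filter and Emcn and Erg were listed at 0 in every library, while 4 of 5 epithelial markers (Epcam, Krt8, Krt18 and Krt19) passed. The cells are therefore called b.End3 by their label only. The summed FPKM (fragments scaled to gene length and to library size) of the epithelial list was 1029 to 1081 in Ctrl, 937 to 1041 in Ep1 and 1155 to 1372 in Ep2, and that of the endothelial list was 21.7 to 22.5, 22.9 to 25.4 and 28.5 to 29.8. Of 10 leukocyte markers only Cd68, which other cells express too, passed the filter. The summed leukocyte level, most of it Cd68 itself, was 23.3 to 25.2 in Ctrl, 20.3 to 25.3 in Ep1 and 76.8 to 92.1 in Ep2. Cd68 alone had a mean of 23.8, 22.1 and 83.6 FPKM in these groups. Of the 10 markers 8 had at most 3 fragments in every library, with Itgam, Cd3e and Tyrobp at 0 in all 9 libraries. The part of these shifts in the results below was not tested. In bulk RNA, fewer cells expressing a gene and less RNA per cell cannot be told apart.

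Promoter sequence near the start site was searched for both elements, and 7 of the 9 genes had an exact match. Shown here are the 5 genes with an ISRE match and Irf1, whose known GAS lies in its window; the distal GAS match of Ifit2 is not shown. The search used RefSeq promoter windows of 300 bases on GRCm38.p6, 250 before and 50 after the start site, with 12 windows for the 9 genes. ISRE was taken as a pair of GAAA half-sites with any 2 bases between them, and GAS as TTC and GAA with any 3 bases between them, on both strands. Capitals mark the matched letters, whose half-sites read TTTC where the ISRE lies on the opposite strand, and positions are counted from the start site, with the last base before it at -1.
Stat2, chr10:128270256-128270305 (+), ISRE: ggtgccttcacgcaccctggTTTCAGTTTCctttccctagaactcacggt
Isg15, chr4:156200855-156200916 (-), ISRE: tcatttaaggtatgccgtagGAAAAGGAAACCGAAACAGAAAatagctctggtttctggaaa
Ifit1, chr19:34640765-34640833 (+), ISRE: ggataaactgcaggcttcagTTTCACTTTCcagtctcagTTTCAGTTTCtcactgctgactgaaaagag
Ifit3, chr19:34583353-34583436 (+), ISRE: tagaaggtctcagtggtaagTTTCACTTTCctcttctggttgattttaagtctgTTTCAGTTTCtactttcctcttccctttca
Bst2, chr8:71537567-71537622 (-), ISRE: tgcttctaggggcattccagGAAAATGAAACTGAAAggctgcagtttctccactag
Irf1, chr11:53769904-53769952 (+), GAS: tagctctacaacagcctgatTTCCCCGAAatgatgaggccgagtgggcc

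The ISRE letters were found for 5 of the 9 genes, which have 12 windows, against 3.44% of all 32851 windows. For both motifs a count of genes is thus set beside a share of windows, and a gene may have several. The genes were chosen by name as interferon-stimulated genes and their factors, so these figures are a description only. Isg15 held 3 overlapping matches between -78 and -57, Bst2 held 2 overlapping matches between -130 and -115, Ifit1 and Ifit3 held 2 each and Stat2 held 1. The GAS letters stood in windows of Irf1, Ifit2 and Bst2, against 8.30% of all windows, and the Bst2 match overlapped its first ISRE match. No match says only that these letters are not in the window, and a match is not a bound site.

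**Figure D1:**
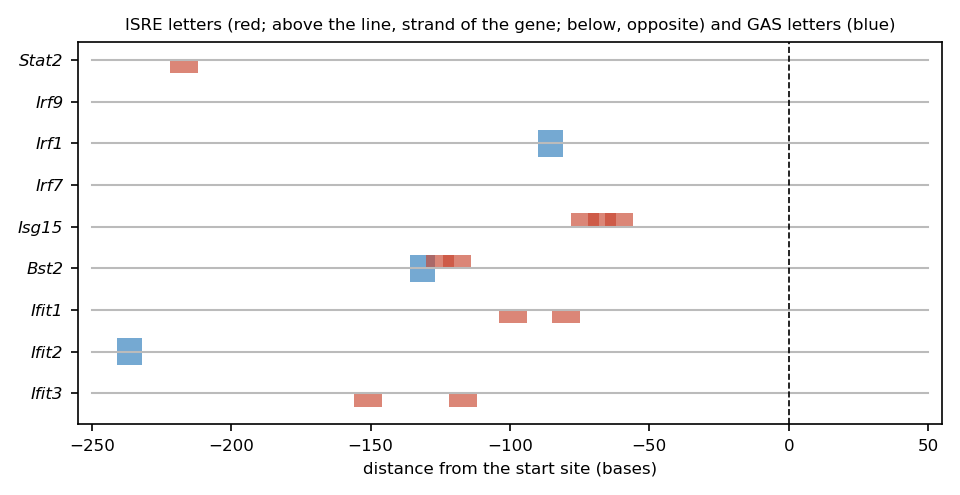
Position of ISRE matches (red) and GAS matches (blue) along the promoter windows of the 9 genes, in bases from the start site (dashed line). ISRE letters lie between -222 and -57 in Stat2, Isg15, Bst2, Ifit1 and Ifit3, and no window of Irf9 or Irf7 has either motif.

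Without treatment the genes spanned a wide range of levels. Mean FPKM in Ctrl, which corrects for gene length, was 54.3 ± 1.60 for Bst2, 17.8 ± 0.665 for Irf1, 7.89 ± 2.0 for Isg15, 2.46 ± 0.500 for Stat2 and 2.13 ± 0.432 for Irf9 (SD, n = 3). The remaining genes were below 1 FPKM, with Ifit2 at 0.779 ± 0.225, Irf7 at 0.722 ± 0.168, Ifit1 at 0.297 ± 0.132 and Ifit3 at 0.250 ± 0.0882. Library ranges overlapped between neighbours for Stat2 and Irf9, for Ifit2 and Irf7, and for Ifit1 and Ifit3, so their order is not resolved. Bst2 stood above 91.5% of the tested genes and Stat2 above 20.7%. The interferon genes themselves were almost silent: of 21 ligands 17 were at 0 in all libraries, Ifnb1 among them, and none exceeded 3 fragments in any library. At 16240688 to 19509225 fragments on genes per library, a count of 0 still allows up to 3 fragments, counting error only.

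The comparisons asked which genes differed between each light dose and untreated cells and between the doses. limma was fitted to log2(FPKM + 1) over the 11727 genes with at least 1 FPKM in at least 3 libraries, which kept Stat2, Irf9, Irf1, Isg15 and Bst2. Irf7, Ifit1, Ifit2 and Ifit3 fell under that filter, and were tested with limma voom on fragments recovered from the FPKM values, over 14112 genes. A call is a Benjamini-Hochberg adjusted p below 0.05 over all genes tested. On the log2(FPKM + 1) scale the change of a gene of low level is understated.

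In Ep1 against Ctrl 1 of the 5 tested genes passed, Irf1, which was lower, beside 11.3% of all tested genes (6.32% higher and 4.97% lower). With voom 2 of the 9 passed, Irf1 and Stat2, both lower, beside 13.6%. In Ep2 against Ctrl 3 of 5 passed, Stat2 and Irf9 higher and Bst2 lower, beside 53.2% of all tested genes (23.9% higher and 29.3% lower), and with voom 5 of 9 passed, with Ifit1 higher and Ifit2 lower in addition, beside 50%. In Ep2 against Ep1 4 of 5 passed, Stat2, Irf9 and Irf1 higher and Bst2 lower, beside 44% (18.8% higher and 25.2% lower), and with voom 5 of 9 passed, with Irf7 in addition, beside 41.5%. With so few genes, shares in these ranges are not a result about the set. The median log2 fold change of the 5 genes was -0.15, 0.25 and 0.33 in the 3 comparisons, beside -0.01, -0.03 and -0.01 over all tested genes. No gene also passed an absolute log2 fold change of 0.6 on the FPKM scale, beside 0.793%, 9.17% and 5.9% of all tested genes. With voom 0, 2 (Ifit1 and Ifit2) and 2 (Stat2 and Irf7) did, beside 1.72%, 15.7% and 11%.

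**Figure D2:**
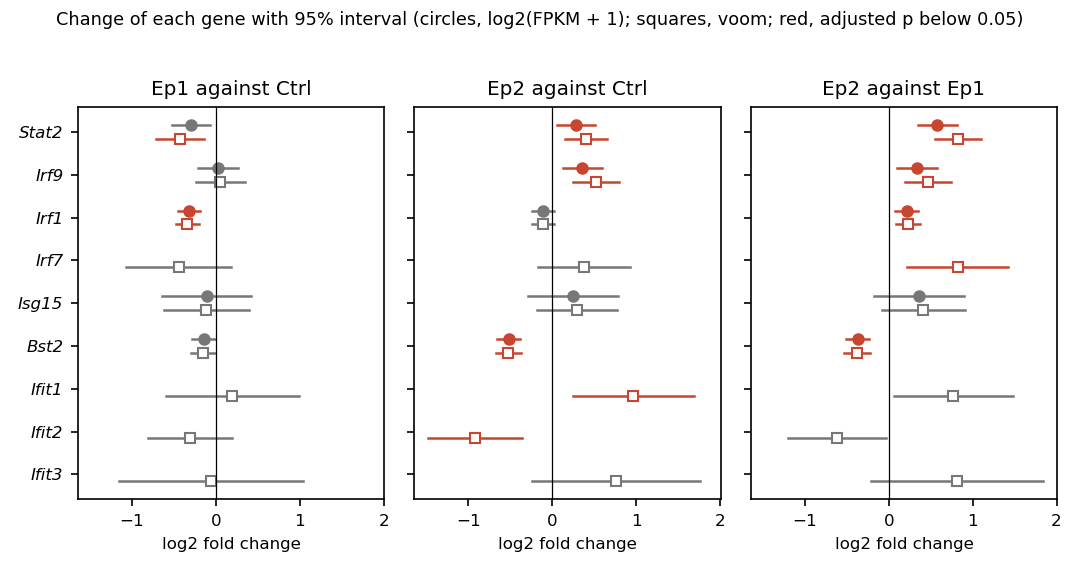
Log2 fold change of each gene with its 95% interval in the 3 comparisons, from limma on log2(FPKM + 1) (circles, 5 genes) and from voom (squares, 9 genes); red marks an adjusted p below 0.05. Bst2 lies below 0 and Stat2 and Irf9 lie above 0 in both comparisons of Ep2, and the intervals of Ifit1 and Ifit3 are the widest of the 9 with voom in every comparison.

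Stat2, the STAT that interferon alpha and beta receptors recruit, differed most between the doses among the 5 genes tested on the FPKM scale. It lies on chr10:128270559-128292849, plus strand. The Ctrl libraries had 2.24, 2.11 and 3.04 FPKM, the Ep1 libraries 1.80, 1.80 and 1.81, and the Ep2 libraries 3.58, 3.12 and 2.91. All Ep1 libraries were below all others, and Ep2 overlapped Ctrl only through Ctrl replicate 3. Ep2 was higher than Ep1 by 0.58 on the log2(FPKM + 1) scale (SE 0.102, adjusted p = 0.00155). Ep2 was higher than Ctrl by 0.29 (SE 0.102, adjusted p = 0.0388), a call lost without Ctrl replicate 1 (adjusted p = 0.122), Ctrl replicate 2 (0.139), Ep2 replicate 1 (0.111) or Ep2 replicate 2 (0.0722). Ep1 against Ctrl gave -0.30 (adjusted p = 0.0900) on this scale and -0.42 (adjusted p = 0.0463) with voom.

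Irf9, the DNA-binding subunit that pairs with Stat2, lies on chr14:55603571-55610030, plus strand. Its levels were 1.81, 1.96 and 2.62 FPKM in Ctrl, 2.36, 2.0 and 2.14 in Ep1 and 3.26, 3.11 and 2.63 in Ep2. Every Ep2 library exceeded every Ctrl and Ep1 library, although Ep2 replicate 3 was above Ctrl replicate 3 by less than 0.01 FPKM. Ep2 was higher than Ctrl by 0.36 (SE 0.105, adjusted p = 0.0166) and higher than Ep1 by 0.33 (SE 0.105, adjusted p = 0.0281). The first call was lost without Ctrl replicate 1 (0.0643), Ctrl replicate 2 (0.0589) or Ep2 replicate 2 (0.0516). The second was lost without Ep1 replicate 2 (0.0917), Ep1 replicate 3 (0.0733), Ep2 replicate 1 (0.0759) or Ep2 replicate 2 (0.0780). Ep1 against Ctrl gave 0.03, adjusted p = 0.897, with a 95% interval from -0.21 to 0.26. Irf9 shares 123 bases with Rnf31 on the same strand, and how such reads were assigned is not given in the sources used here.

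Irf1, a transcription factor that drives part of the same program without Stat2, lies on chr11:53770014-53778374, plus strand. Ctrl had 17.1, 18.2 and 18.2 FPKM, Ep1 had 13.8, 14.8 and 13.7, and Ep2 had 17.7, 16.5 and 15.3. The Ep1 libraries lay below both other groups, while Ep2 and Ctrl overlapped. Irf1 fell by 0.32 in Ep1 against Ctrl (SE 0.0592, adjusted p = 0.0139), a call lost without Ctrl replicate 2 (0.0692), Ep1 replicate 1 (0.0557) or Ep1 replicate 3 (0.0631). Ep2 was above Ep1 by 0.21 (SE 0.0592, adjusted p = 0.0162), which was lost without Ep1 replicate 1 (0.0509) or Ep1 replicate 3 (0.0603). Ep2 against Ctrl gave -0.11 (adjusted p = 0.156), and without Ep2 replicate 1 it gave -0.16 (adjusted p = 0.0379).

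Irf7, which is itself induced by interferon and raises the transcription of interferon alpha genes, lies on chr7:141262706-141266481, minus strand. It was scarce, with 40, 54 and 62 fragments in Ctrl (0.549, 0.731 and 0.884 FPKM), 32, 26 and 50 in Ep1 (0.459, 0.411 and 0.713 FPKM) and 96, 54 and 46 in Ep2 (1.33, 0.764 and 0.734 FPKM). In FPKM every Ep2 library was above every Ep1 library, Ep2 replicate 3 and Ep1 replicate 3 being nearly level. In fragments Ep2 replicate 3 (46) was below Ep1 replicate 3 (50). Ep2 replicate 1 stood far above the other Ep2 libraries. With voom Ep2 was higher than Ep1 by 0.82 (SE 0.289, adjusted p = 0.0294). The call was lost without Ep2 replicate 1 (log2 fold change 0.53, adjusted p = 0.130), Ep1 replicate 1 (0.106) or Ep1 replicate 2 (0.124). Neither Ep1 (-0.44, adjusted p = 0.355) nor Ep2 (0.38, adjusted p = 0.247) passed against Ctrl. The value for Ep2 against Ctrl was 0.087 without Ep2 replicate 1 and 0.19 without Ctrl replicate 1. An end of Irf7 overlaps Phrf1 on the other strand by 45 bases. Phrf1 had 1707 to 2641 fragments per library, and whether any of its reads were counted for Irf7 was not tested.

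Bst2 was the most abundant of the products and showed the firmest change, and it was lower. It lies on chr8:71534255-71537456, minus strand, and no other gene in the table overlaps it. Ctrl libraries had 54.7, 55.7 and 52.5 FPKM, Ep1 libraries 45.0, 50.6 and 51.4, and Ep2 libraries 40.2, 36.9 and 35.9. The 3 groups were fully separated, in the order Ctrl, Ep1, Ep2. Bst2 fell by 0.52 in Ep2 against Ctrl (SE 0.0613, adjusted p = 0.000115) and by 0.37 in Ep2 against Ep1 (SE 0.0613, adjusted p = 0.00114). These calls held when each of the 6 libraries compared was left out in turn, with adjusted p up to 0.000936 and 0.00666. Ep1 against Ctrl gave -0.15 (adjusted p = 0.146). Bst2 is also 1 of the 4 listed markers of plasmacytoid dendritic cells, of which Tcf4 (2.87 FPKM in Ctrl and 3.32 in Ep2) and Irf8 (3.27 and 2.90) passed the filter too, while Siglech was at 0 in all libraries. The summed level of that list, most of it Bst2 itself, was 58.8 to 62.2 FPKM in Ctrl, 51.7 to 58.0 in Ep1 and 42.4 to 46.0 in Ep2, and its part in the result was not tested.

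Isg15, a small protein conjugated to other proteins and also secreted, lies on chr4:156199424-156200818, minus strand, and held the most ISRE matches of the set. Its libraries had 6.59, 6.90 and 10.2 FPKM in Ctrl, 6.73, 6.86 and 7.77 in Ep1 and 13.7, 8.55 and 7.01 in Ep2. The groups overlapped in every comparison, with Ctrl replicate 3 and Ep2 replicate 1 apart from the rest of their groups. The log2 fold change was -0.11 in Ep1 against Ctrl (adjusted p = 0.791), 0.25 in Ep2 against Ctrl (adjusted p = 0.397) and 0.36 in Ep2 against Ep1 (adjusted p = 0.245). The interval for Ep2 against Ctrl ran from -0.29 to 0.78, so these libraries do not separate no change from a rise of that size. Without Ep2 replicate 1 the same value was -0.00048.

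The Ifit genes encode tetratricopeptide proteins that bind viral RNA ends. They lie side by side on chromosome 19, Ifit2 at chr19:34550694-34576419, Ifit3 at chr19:34583531-34588731 and Ifit1 at chr19:34640871-34650009, all on the plus strand. Ifit1 had 10, 13 and 22 fragments in Ctrl, 13, 15 and 18 in Ep1 and 35, 26 and 20 in Ep2. As levels these are 0.195, 0.250 and 0.446 FPKM, then 0.265, 0.337 and 0.365, then 0.691, 0.523 and 0.453. All Ep2 libraries exceeded all others, Ep2 replicate 3 and Ctrl replicate 3 being nearly level. With voom Ifit1 was higher in Ep2 than in Ctrl by 0.97 (SE 0.343, adjusted p = 0.0250), and the call was lost without Ctrl replicate 1 (0.129), Ctrl replicate 2 (0.0786) or Ep2 replicate 1 (0.0837). Ep2 against Ep1 gave 0.77 (adjusted p = 0.0757) and Ep1 against Ctrl 0.20 (adjusted p = 0.783).

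Ifit2, in the same cluster, went the other way. Ctrl libraries had 43, 78 and 55 fragments (0.568, 1.02 and 0.754 FPKM), Ep1 libraries 39, 44 and 47 (0.538, 0.668 and 0.645 FPKM) and Ep2 libraries 28, 25 and 33 (0.374, 0.340 and 0.506 FPKM). Every Ep2 library was below every other library. With voom Ifit2 fell by 0.92 in Ep2 against Ctrl (SE 0.267, adjusted p = 0.00751), which without Ctrl replicate 2 became -0.69 (adjusted p = 0.0507). Ep2 against Ep1 gave -0.62 (adjusted p = 0.0863) and Ep1 against Ctrl -0.30 (adjusted p = 0.442).

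Ifit3, a partner that stabilizes Ifit1 in known complexes, had 5, 10 and 10 fragments in Ctrl, 14, 4 and 6 in Ep1 and 21, 14 and 7 in Ep2. In FPKM these were 0.149, 0.293 and 0.309, then 0.435, 0.137 and 0.185, then 0.631, 0.429 and 0.242. The groups overlapped, and voom gave 0.76 for Ep2 against Ctrl (adjusted p = 0.202, 95% interval -0.24 to 1.76) and 0.82 for Ep2 against Ep1 (adjusted p = 0.195). Its near-identical copy Ifit3b had at most 6 fragments in a library, so reads may be split between the copies and both values are uncertain. Summed over a group the Ifit3 fragments were 25, 24 and 42, whose exact Poisson intervals, counting error only, are 0.162 to 0.369, 0.162 to 0.375 and 0.313 to 0.587 FPKM for Ctrl, Ep1 and Ep2.

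**Figure D3:**
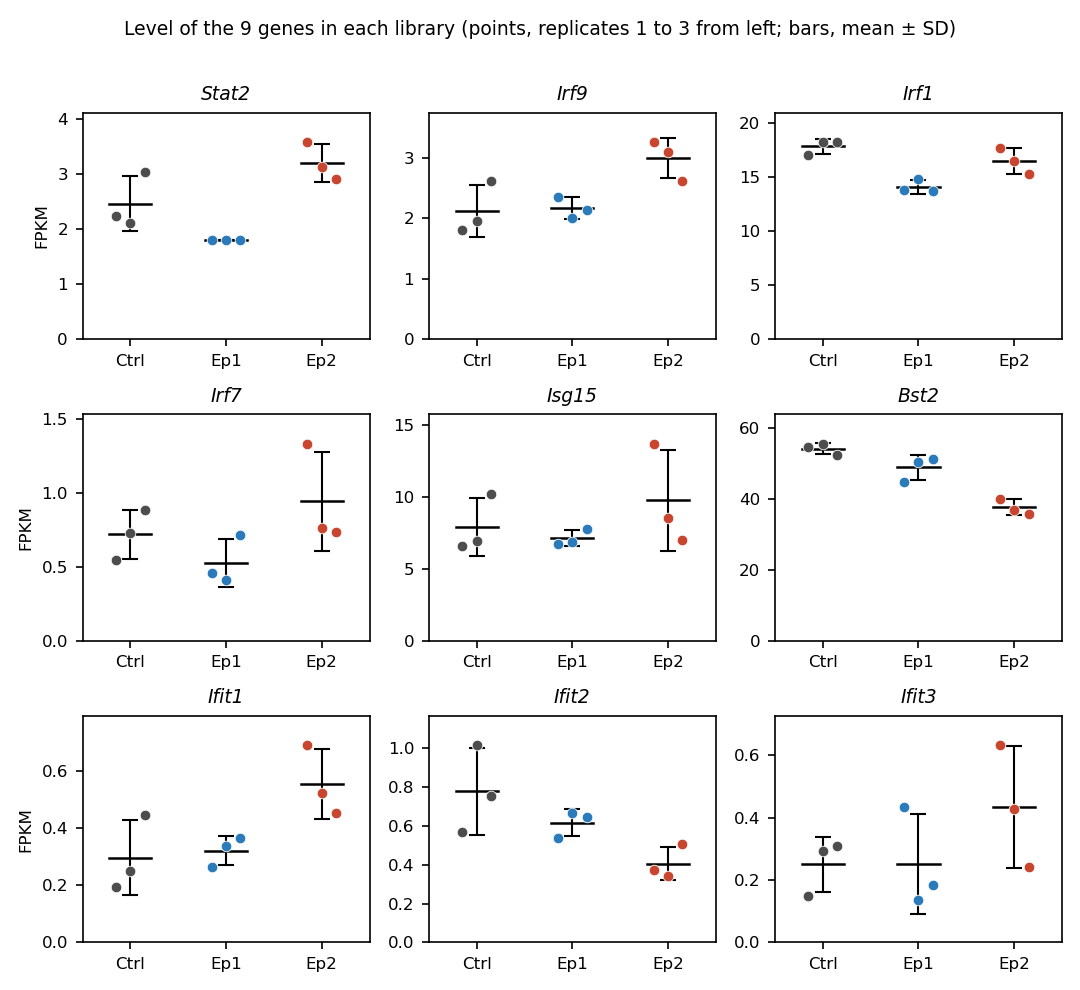
FPKM of each gene in each library (points, replicates 1 to 3 from left), with the mean and SD of each group of 3. Bst2 steps down from Ctrl to Ep2, Stat2 and Irf1 are lowest in Ep1, Irf9 and Ifit1 are highest in Ep2, and Ifit2 is lowest there.

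On separation of the libraries alone, 3 of the 5 tested genes had no overlap between Ep1 and Ctrl, beside 41.3% of all tested genes. The figure was 2 of 5 for Ep2 and Ctrl, beside 59.7%, and 4 of 5 for Ep2 and Ep1, beside 54.4%. In each group most of the 9 genes peaked in the same library of the group, least so in Ep1. Ep2 replicate 1 was the highest Ep2 library for 8 of the 9 genes, all but Ifit2, beside 38.9% of all tested genes and 25 of 52 other interferon-stimulated genes tested (48.1%). Ctrl replicate 3 was the highest Ctrl library for 7 of 9, all but Ifit2 and Bst2, beside 34.2% of all tested genes and 26 of 52 other interferon-stimulated genes. In Ep1 the highest library was replicate 1 for 2 genes, replicate 2 for 2 and replicate 3 for 5. Ep1 replicate 3 was the highest for 31.3% of all tested genes and for 9 of the 52 other interferon-stimulated genes (17.3%). By contrast, 33 of those 52 (63.5%) peaked in Ep1 replicate 1, beside 35.6% of all tested genes. The depths of Ep2 replicate 1 (18575984 fragments) and Ctrl replicate 3 (18289776) lay inside the range of the other libraries.

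**Figure D4:**
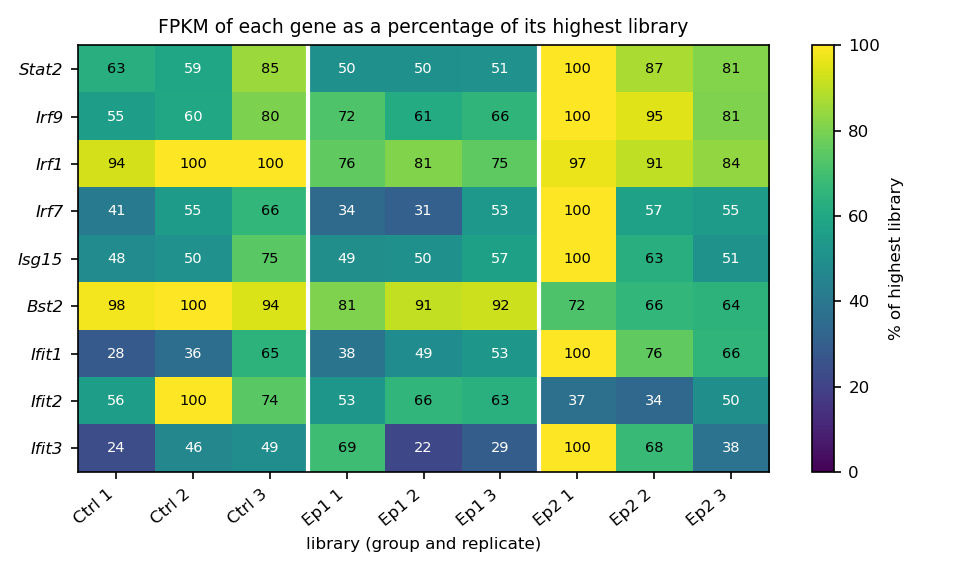
FPKM of each gene in each library as a percentage of its highest library (colour and number; columns, libraries by group). Ep2 replicate 1 is the highest of all 9 libraries for Stat2, Irf9, Irf7, Isg15, Ifit1 and Ifit3, while Bst2 and Ifit2 have their lowest values in Ep2.

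The rest of the pathway was read from lists of 158 genes, 98 of which passed the filter. All 6 interferon receptor genes were tested. None passed in Ep1, 5 were higher in Ep2 than in Ctrl and all 6 were higher in Ep2 than in Ep1, beside 23.9% and 18.8% of all tested genes higher in these comparisons. The call of Ifnar2 in Ep2 against Ep1 was lost without Ep1 replicate 3 (adjusted p = 0.0846), Ep2 replicate 2 (0.0801) or Ep2 replicate 3 (0.0618). Ifnar1, with a mean of 12.9 FPKM in Ctrl and 15.1 in Ep2, rose by 0.22 (adjusted p = 0.00125), and Ifnar2, with 6.66 and 8.36, rose by 0.29 (adjusted p = 0.00392). Il10rb, the shared chain of the interferon lambda and interleukin 10 receptors, rose by 0.65 from 5.87 to 9.75 FPKM (adjusted p = 1.2e-05). Of the JAK and STAT genes 8 were tested and 2 passed in Ep2 against Ctrl (25%), beside 53.2% of all tested genes. The 2 were Jak1, higher by 0.40 (adjusted p = 0.000102), and Jak2, higher by 0.38 (adjusted p = 0.000620).

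The list of other interferon regulatory factors, which also holds the Irf2-binding proteins Irf2bp1 and Irf2bp2, had 6 tested genes. Against Ctrl 1 was lower in Ep1 (16.7%), and 2 were higher and 2 lower in Ep2 (66.7%). The shares of all tested genes were 11.3% and 53.2%. Irf3, which triggers interferon beta transcription, fell by 0.33 in Ep1 (adjusted p = 0.0287) and by 0.54 in Ep2 (adjusted p = 0.000343) against Ctrl. In Ep2 Irf2bp1 was lower too (-0.34, adjusted p = 8.6e-05), while Irf2 (0.24, adjusted p = 0.00914) and Irf2bp2 (0.22, adjusted p = 0.0222) were higher. Of 16 genes listed under nucleic acid sensing 1 was higher and 1 lower in Ep1, and 4 were higher and 3 lower in Ep2 against Ctrl. These calls are 12.5% and 43.75% of the 16, beside 11.3% and 53.2% of all tested genes. Tlr4, from 8.01 FPKM in Ctrl to 14.5 in Ep2, rose by 0.78 (adjusted p = 1.0e-05). Although on this list, Tlr4 is a receptor for lipopolysaccharide and not a sensor of nucleic acid. It was the only 1 of the 16 also past an absolute log2 fold change of 0.6 in Ep2 against Ctrl. The kinase Tbk1, which activates Irf3, was higher by 0.29 in Ep1 (adjusted p = 0.0178) and by 0.44 in Ep2 (adjusted p = 0.000218). The adaptor Mavs was lower in Ep1 (-0.31, adjusted p = 0.0114) and in Ep2 (-0.30, adjusted p = 0.00115), and Tmem173 (STING) was lower in Ep2 (-0.30, adjusted p = 0.000514). Of 10 genes listed as feedback inhibitors 1 was higher and 2 were lower in each dose against Ctrl. These calls are 30% of the 10 at each dose, beside 11.3% in Ep1 and 53.2% in Ep2 of all tested genes. Ptpn2 was higher and Usp18 and Pias3 were lower in Ep1, and Socs3 was higher and Ptpn11 and Ptpn1 were lower in Ep2. Usp18, which removes Isg15 from proteins and blocks Ifnar2, fell by 0.36 in Ep1 (adjusted p = 0.0286), and Socs3 rose by 0.34 in Ep2 (adjusted p = 0.000493). Socs1 gave 0.01 and -0.07 (adjusted p = 0.929 and 0.484). In Ep1 against Ctrl the calls of Irf3, Usp18 and Ptpn2 were lost when any 1 of the 6 libraries was left out, with adjusted p up to 0.113, 0.112 and 0.170. Pias3 kept its call in that comparison only without Ctrl replicate 3, and its adjusted p was 0.0917 to 0.134 without any other library. Without each of those 5 libraries none of the 3 called inhibitors passed. In Ep2 against Ctrl Ptpn1 (-0.10, adjusted p = 0.0469) lost its call without Ctrl replicate 1 (0.166), Ctrl replicate 2 (0.0866), Ep2 replicate 2 (0.0885) or Ep2 replicate 3 (0.105). Tbk1 lost its Ep1 call without Ctrl replicate 1 (0.0551), Ctrl replicate 2 (0.0823), Ep1 replicate 1 (0.0683) or Ep1 replicate 3 (0.0619), and Mavs without Ctrl replicate 2 (0.0584) or Ep1 replicate 3 (0.0548). Irf2bp2 lost its Ep2 call without Ctrl replicate 2 (0.0852), Ctrl replicate 3 (0.0657) or Ep2 replicate 2 (0.0701).

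Other interferon-stimulated genes were called in the lower direction alone in Ep1 against Ctrl, and in both directions in the comparisons of Ep2. Of 52 tested, 0 were higher and 9 lower in Ep1 against Ctrl (17.3%), 10 higher and 14 lower in Ep2 against Ctrl (46.2%), and 17 higher and 11 lower in Ep2 against Ep1 (53.8%), beside 11.3%, 53.2% and 44% of all tested genes. Their median log2 fold changes were -0.18, -0.05 and 0.10, beside the medians of all tested genes given above. Pml, the organizer of nuclear bodies, was at 12.5, 9.64 and 6.95 FPKM in Ctrl, Ep1 and Ep2 and fell by 0.35 in Ep1 (adjusted p = 0.00924) and 0.77 in Ep2 (adjusted p = 8.1e-06). Ifitm3, a membrane protein that blocks viral fusion, was at 428, 370 and 299 FPKM and fell by 0.21 in Ep1 (adjusted p = 0.0132) and 0.51 in Ep2 (adjusted p = 9.7e-06). The Ep1 call of Ifitm3 was lost without Ctrl replicate 1 (0.0519), Ctrl replicate 2 (0.0695), Ep1 replicate 1 (0.0537) or Ep1 replicate 3 (0.0636). Slfn9, a Schlafen family gene, dropped by 1.03 and the peptide transporter gene Tap1 by 0.59 in Ep2 against Ctrl. Ifi203, of the interferon-inducible p200 family, was higher in Ep2 than in Ctrl by 0.58 (adjusted p = 0.000263) and the double-stranded RNA kinase Eif2ak2 by 0.25 (adjusted p = 0.00382). Cmpk2, a mitochondrial nucleotide kinase, was lowest in Ep1 and highest in Ep2, with 2.0, 1.5 and 2.86 FPKM in Ctrl, Ep1 and Ep2 and a difference of 0.63 between Ep2 and Ep1 (adjusted p = 0.000318). Over all 158 pathway genes, 2 were higher and 13 lower in Ep1 against Ctrl, 24 and 21 in Ep2 against Ctrl, and 34 and 14 in Ep2 against Ep1, which is 15.3%, 45.9% and 49.0% of the 98 tested. These total shares lie near those of all tested genes, 11.3%, 53.2% and 44%, and as totals are not a result about the pathway. By direction, the pathway calls in Ep1 against Ctrl were mostly lower, while all tested genes had 6.32% higher and 4.97% lower. In Ep2 against Ep1 the pathway calls were mostly higher, while all tested genes had 18.8% higher and 25.2% lower. For Ep2 against Ctrl all tested genes had 23.9% higher and 29.3% lower. Whether the pathway differs from other genes in direction was not tested. The 15 calls in Ep1 became 3 without Ctrl replicate 1, 1 without Ctrl replicate 2, 10 without Ctrl replicate 3, and 5, 8 and 1 without Ep1 replicates 1, 2 and 3.

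**Figure D5:**
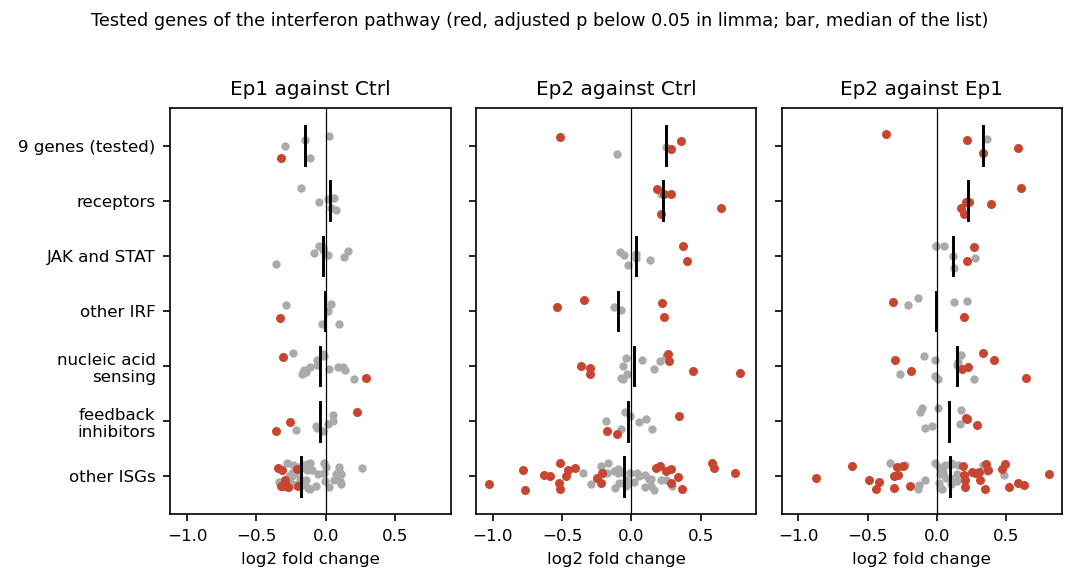
Log2 fold change on the log2(FPKM + 1) scale of each tested gene in the lists of the interferon pathway (points; red, adjusted p below 0.05; bar, median of the list). Receptors lie above 0 in both comparisons of Ep2, and the 52 other interferon-stimulated genes (ISGs) spread to both sides.

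For the genes that passed in any comparison of the FPKM fit, the gene of nearest pattern among 11720 others was found by Pearson's r of log2(FPKM + 1) over the 9 libraries, as a description. It was Zkscan14 for Stat2 (r = 0.98), Lima1 for Irf1 (r = 0.97), Zfp994 for Irf9 (r = 0.96) and Farsa for Bst2 (r = 0.99). No other gene of the interferon lists was the nearest for any of the 4. The 9 genes themselves were left out of this search, and the lists hold only 98 tested genes, so that absence says little.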

How the data were processed

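The authors deposited FPKM values per gene (Illumina paired-end reads), with gene length in bases as a further deposited column of the joint table. The study's methods name GRCm39 and the submitters' processing notes mm8 and Bowtie 0.12.2, but the listed positions overlap GRCm38 genes of the same name for 99.9% of 36414 genes (12.4% on GRCm39), so GRCm38 is given here. Multiplying FPKM by length gave whole fragments per library (100% of values within 0.05), summing to 16240688 to 19509225 on genes. Replicate libraries differed by more than counting noise (chi-square per degree of freedom 2.81 to 15.2), and all 9 were kept.

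limma 3.58.1 (R 4.3.3) was fitted to log2(FPKM + 1), with the pseudocount of 1, over all 3 groups without covariates. The filter asked for 1 FPKM or more in 3 or more libraries. Benjamini-Hochberg adjustment ran over all genes tested. limma voom used the recovered fragments with trimmed-mean scaling (at least 10 fragments in at least 3 libraries). Scripts were tested on simulated data. Named genes were the 9, the 2 smallest adjusted p per list, comparison and direction (not all are printed, and 1 gene of the rule is not reported here), and Ifnb1, Ifnar1, Ifnar2, Usp18 and Socs1. The 9 genes and all lists were chosen with earlier results of these data known. Alternatives were median centring, no filter, a filter at 5 FPKM, a pseudocount of 0.1, a replicate block, only the groups compared, voom and leaving out each library. Promoter sequences are from RefSeq. Strandedness of the library kit and the counting tool are not given in the sources used here.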

Additional observations from a re-analysis of the deposited data

Results flagged for a closer look

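The effect of PDT differed between the light doses for 4 genes, by the test of the difference itself, Ep2 against Ep1 in limma on log2(FPKM + 1), beside 44% of all tested genes that passed the same test. Since both effects are taken against the same Ctrl libraries, this difference is that of the log2 fold changes of the doses. It was 0.58 for Stat2 (-0.30 in Ep1 and 0.29 in Ep2 against Ctrl), 0.33 for Irf9 (0.03 and 0.36), 0.21 for Irf1 (-0.32 and -0.11) and -0.37 for Bst2 (-0.15 and -0.52). Of the 6 fits that leave out 1 library compared, the call held in 6 for Stat2 and for Bst2. It held in only 4 for Irf1 and 2 for Irf9. Groups of 3 libraries were too small for an outlier test of single libraries, whose weight was read only by leaving each out.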

How the results depend on the processing

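No alternative turned the direction of a called gene. Counts of the 9 genes with an adjusted p below 0.05 in Ep1 against Ctrl, Ep2 against Ctrl and Ep2 against Ep1 were 1, 3 and 4 of the 5 tested, and 2, 5 and 5 of 9 with voom. The filter at 5 FPKM gave 1 and 2 in the comparisons of Ep2, since it tested fewer genes (3). Leaving out one library gave 0 to 1, 1 to 3 and 2 to 4. With the threshold of 0.6 on the log2 fold change added, no gene passed in the comparisons of Ep2, against 2 and 2 with voom, and for Ep2 against Ep1 1 with median centring, 1 with a pseudocount of 0.1 and 0 to 1 leaving out one library. The other pathway genes passing in Ep1 against Ctrl numbered 15, against 4 without a filter, 27 with only the groups compared and 1 to 10 leaving out one library; in the comparisons of Ep2, where the counts were 45 and 48, no alternative moved them by over 1.5 times. The cause was not tested. Besides the calls already given, Stat2 in Ep2 against Ctrl was lost without a filter (adjusted p = 0.0962) and with only the groups compared (0.0756), Irf9 in Ep2 against Ep1 without a filter (0.0757), and without a filter Ifit1 (0.0907), Ifit2 (0.0529) and Irf7 (0.157) did not pass on the log2(FPKM + 1) scale. Over the 9 genes 263 values kept their side of the threshold, 32 lost it and 2 gained it.

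Libraries carry replicate numbers 1 to 3 in every group, but same-numbered libraries did not deviate together (correlations of deviations from -0.0565 to 0.0744), so the numbers were not taken as pairs. With the replicate block the counts were 1, 2 and 3, and 14, 46 and 48 for the other pathway genes. Stat2 in Ep2 against Ctrl (0.0615), Irf9 in Ep2 against Ep1 (0.0549) and, with voom, Ifit1 in Ep2 against Ctrl (0.0504) lost their calls. The fits with voom that leave out a library, use the block or only the groups compared were chosen after seeing the data.

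Irf7 and the Ifit genes rest on 4 to 96 fragments per library and every group on 3 libraries, and which of these limits their calls more was not tested.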
